A study of Mus musculus with 2 samples.

Results

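Scg2, Ptprn2, Snap25, Insm1, Chga and Rab3b are the 6 genes of neuroendocrine differentiation and secretory granules described here, out of a Xenium In Situ panel of 379 standard and 100 added genes. Xenium reads RNA molecules one by one in place and allots each to the outline of a cell. The genes were chosen by name, on levels and detection already seen in the same counts, so their levels and folds are descriptions. An EKP tumour and an RKP tumour gave 1 section each. Both tumours grew under the skin of C57BL/6 mice, which were 5 weeks old when housed, after cultured EKP or RKP cells in Matrigel were injected into both flanks. Tumours were collected at similar volumes and shared 1 paraffin block, and the tissue is labelled as diffuse gastric cancer. The labels neither spell out EKP and RKP nor say what genetic changes each line carries, and each line is a single culture with no second section. Every difference is therefore between 2 sections, without a test, and all 95% intervals cover counting error only.

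Neuroendocrine cells store peptide hormones in dense-core granules and release them when calcium rises. Insm1 is a zinc finger transcription factor of endocrine and neuroendocrine differentiation. Scg2 (secretogranin II) and Chga (chromogranin A) are granins, acidic proteins that pack the granule core. Ptprn2 is a receptor-type phosphatase-like protein of the granule membrane, Rab3b is a small GTPase of regulated exocytosis, and Snap25 is a membrane SNARE that drives vesicle fusion. In the stomach, scattered endocrine cells of the glands carry such granules, and some carcinomas contain cells with neuroendocrine gene expression.

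The cells of each section were sorted by the count of Krt8, a keratin of simple epithelia, and of Epcam, an epithelial surface adhesion protein, among cells with 80 or more gene counts. Cells with Krt8 at 3 or more fell into Epcam-high (5 or more counts; 40134 in EKP and 67903 in RKP), Epcam-intermediate (2 to 4; 8103 and 14335) and Epcam-low cells (0 or 1; 15785 and 26948). The other cells, with less Krt8, numbered 69151 and 92261. Cells with 80 or more counts were 51.0% of the EKP section and 78.8% of the RKP section. Median gene counts were 268 and 249 in Epcam-high cells, 208 and 192 in Epcam-low cells, and 156 and 148 in the other cells. The 4 epithelial markers on the panel summed to 166505 and 149549 counts per 1000000 gene counts (CPM) in Epcam-high cells and to 48307 and 34613 CPM in Epcam-low cells. The 4 fibroblast markers stood at 22778 and 16436 CPM in Epcam-high against 51770 and 24500 CPM in Epcam-low cells, and the 4 macrophage markers at 4556 and 6271 against 11144 and 17861 CPM, so Epcam-low cells also held more RNA of other cell types. The highest negative control probe lay between 1.86 and 6.20 CPM in all groups.

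The upstream sequences of Scg2, Ptprn2 and Chga are shown because these genes peaked in 3 different groups of cells in the EKP section: Epcam-high, Epcam-low and other cells. They are the 250 bases before the RefSeq gene start in GRCm38.p6, with matches to the searched motifs in capitals. Of the 6 genes, 4 had a promoter entry; Snap25 and Insm1 are the others.
Scg2, chr1:79440027-79440276, minus strand: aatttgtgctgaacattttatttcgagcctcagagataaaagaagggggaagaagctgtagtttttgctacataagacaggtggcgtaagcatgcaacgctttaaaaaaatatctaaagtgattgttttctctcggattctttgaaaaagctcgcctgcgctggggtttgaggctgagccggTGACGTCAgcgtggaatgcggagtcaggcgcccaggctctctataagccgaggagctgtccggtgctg
Ptprn2, chr12:116485470-116485719, plus strand: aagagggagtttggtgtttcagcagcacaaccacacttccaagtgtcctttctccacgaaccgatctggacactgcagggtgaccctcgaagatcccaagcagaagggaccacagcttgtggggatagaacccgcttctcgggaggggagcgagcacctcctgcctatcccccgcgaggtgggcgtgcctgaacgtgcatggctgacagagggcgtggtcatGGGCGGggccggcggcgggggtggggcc
Chga, chr12:102554691-102554940, plus strand: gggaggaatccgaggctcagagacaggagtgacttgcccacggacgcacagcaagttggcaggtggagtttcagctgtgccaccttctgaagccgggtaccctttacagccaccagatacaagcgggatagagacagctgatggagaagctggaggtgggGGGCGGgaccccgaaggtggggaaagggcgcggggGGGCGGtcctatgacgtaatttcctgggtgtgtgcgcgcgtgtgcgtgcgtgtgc
Both strands were searched for TGACGTCA (the cAMP response element), TGANTCA (AP-1), TATAAA (a core promoter box) and GGGCGG (the Sp1 box). Scg2 held TGACGTCA at -68 to -61 from the start site, a match found in 1.55% of 32851 promoters of that length. Ptprn2 held 1 GGGCGG and Chga held 2, a motif present in 32.7% of promoters. Rab3b held TATAAA at -120 to -115, as 12.4% of promoters did within their window, and 4 GGGCGG matches, of which a pair overlapped. TGANTCA, present in 6.75% of promoters, was in none of the 4 windows. These are letter matches and were not set against the levels below.

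**Figure D1:**
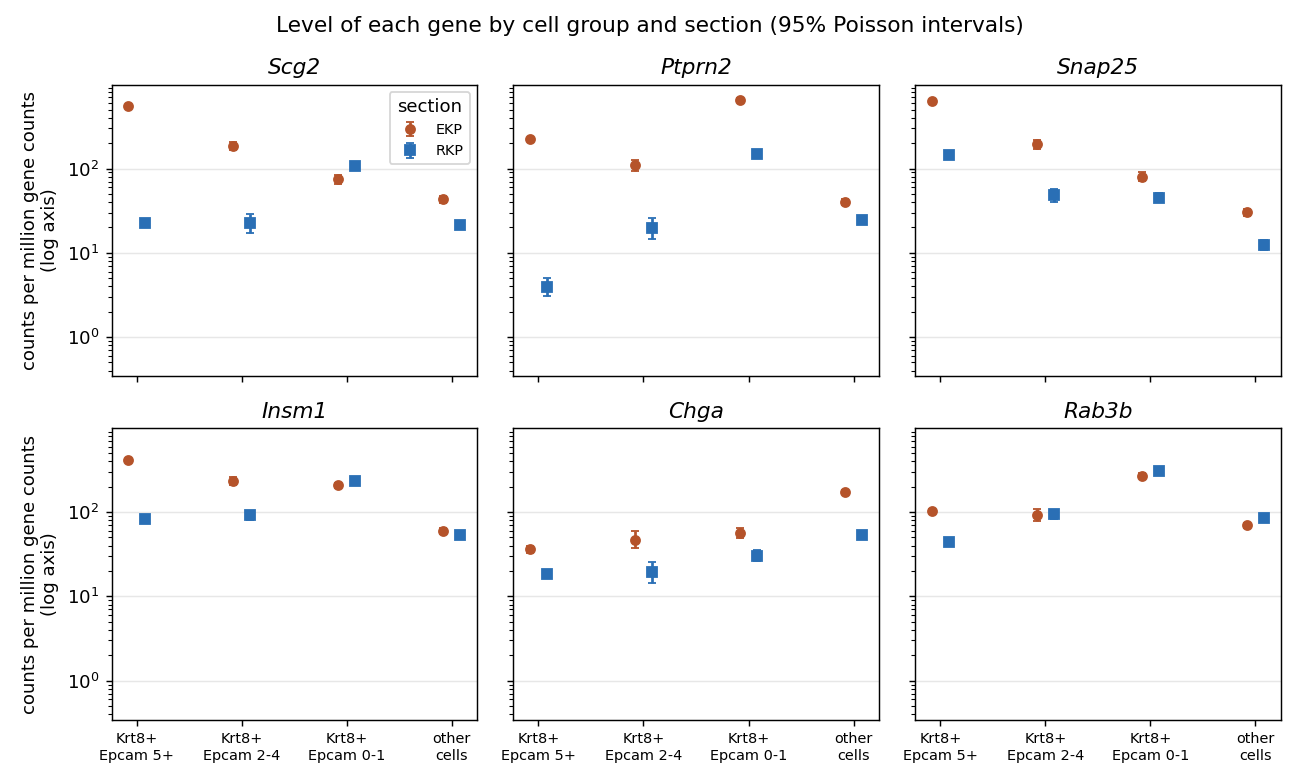
Level of each gene in CPM (log axis) in the 4 groups of cells, EKP as circles and RKP as squares, with 95% Poisson intervals. Scg2, Snap25 and Insm1 are highest in EKP Epcam-high cells, Ptprn2 and Rab3b are highest in Epcam-low cells, and Chga is highest in the other cells of both sections.

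The first comparison asked whether the genes stood at different levels in EKP and RKP cells of the same Epcam group. In Epcam-high cells, 5 of the 6 genes passed 2-fold towards EKP and none towards RKP. The background was 24.7% of the 465 measurable panel genes towards EKP and 14.4% towards RKP. The median log2 ratio of EKP over RKP level was 2.24 over the 6 genes and 0.32 over all genes.

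Cells of macrophage markers, a type that should lack these genes, gave a background level within each section (6371 cells in EKP, median 146 gene counts; 17293 in RKP, median 164). There Scg2 was at 47.3 CPM in EKP and 21.3 in RKP, Ptprn2 at 19.7 and 7.20, Snap25 at 38.5 and 8.18, and Insm1 at 61.1 and 51.1. Chga was at 81.8 and 18.0 CPM in these cells and Rab3b at 27.6 and 56.6. The shares of macrophage-marker cells with a count were 0.722% and 0.353% for Scg2, 0.314% and 0.127% for Ptprn2, 0.596% and 0.139% for Snap25, 0.895% and 0.786% for Insm1, 1.11% and 0.301% for Chga, and 0.439% and 0.971% for Rab3b. With this level as a floor, a setting chosen after seeing the data, 4 genes passed 2-fold in Epcam-high cells: Scg2, Ptprn2, Snap25 and Insm1.

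Insm1, the transcription factor, had a level of 418 CPM (406 to 430) in EKP Epcam-high cells and 81.9 (77.8 to 86.2) in RKP ones, a 5.10-fold difference (4.81 to 5.41). It was detected in 9.18% of the EKP cells and 1.82% of the RKP cells. In Epcam-low cells its levels were 209 CPM in EKP and 237 CPM in RKP, with a log2 ratio of -0.18 that ran from -0.28 to 0.74 over the alternative settings, so no order of the sections is read there.

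Scg2, the granin whose upstream window holds the cAMP response element letters, had 558 CPM (544 to 572) in EKP Epcam-high cells against 22.7 (20.6 to 25) in RKP, a 24.6-fold difference (22.2 to 27.2). It was found in 10.0% and 0.436% of these cells. The RKP level lay close to that of RKP macrophage-marker cells, although 16 RKP Epcam-high cells held 3 or more Scg2 counts where depth alone gave 0.00399. Of all Scg2 counts in the 4 groups of the EKP section, 85.2% lay in Epcam-high cells, whereas in the RKP section 43.2% lay in Epcam-low cells. In Epcam-low cells the EKP level was 74.3 CPM and the RKP level 109 CPM, giving a log2 ratio of -0.55 (-0.76 to -0.34). That direction turned to 1.46 when the groups were formed after thinning each cell to 80 counts. Scg2 was thus highest in Epcam-high cells in the EKP section and in Epcam-low cells in the RKP section.

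Chga, the other granin, showed a smaller section difference in Epcam-high cells, at 36.4 CPM in EKP and 18.6 in RKP (1.96-fold, 1.69 to 2.27). It was in 1.00% and 0.495% of them. The EKP level was below that of EKP macrophage-marker cells in all 3 Krt8-positive groups, so Chga is read as background there and no section difference is drawn from these groups. Its counts lay elsewhere: 75.6% of those in the 4 EKP groups and 59.3% of those in the RKP groups were in the other cells, at 175 CPM (168 to 183) and 52.8 CPM (49.3 to 56.6).

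The level of Ptprn2, the granule membrane protein, in Epcam-high cells was 225 CPM (216 to 234) in EKP and 3.98 (3.11 to 5.01) in RKP, a 56.5-fold difference (44.7 to 72.4), and the RKP level lay near the 3.09 CPM of the highest negative control probe. It was also below the level in RKP macrophage-marker cells, against which the EKP level was at least 31.2-fold higher. As the share of cells after thinning to 80 counts, the log2 ratio was at least 4.33 for Ptprn2 and 4.67 for Scg2. The Ptprn2 value is a lower bound. Its thinned RKP share lay below the 0.0810% of cells with the highest control probe, counted without thinning, which stood in for it. The share of Epcam-high cells with Ptprn2 was 5.61% in EKP and 0.103% in RKP. In Epcam-low cells both sections held more, 657 CPM (631 to 685) and 147 CPM (137 to 158), and the fold was 4.46 (4.12 to 4.84). Among Epcam-low cells Ptprn2 was the 1 gene of 6 past 2-fold towards EKP, beside 26.7% of 472 panel genes, and none passed it towards RKP, beside 12.1%.

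Of the exocytosis proteins, the SNARE gene Snap25 was at 629 CPM (614 to 644) in EKP Epcam-high cells and 144 (138 to 149) in RKP, a 4.37-fold difference (4.18 to 4.58). It was in 13.6% and 3.17% of the cells. Epcam-high cells held 88.0% of its counts in the EKP groups and 82.0% in the RKP groups, which makes it the only one of the 6 with most of its counts there in both sections.

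Rab3b, the GTPase, was at 104 CPM (97.7 to 110) in EKP Epcam-high cells and 43.7 (40.7 to 46.8) in RKP, a 2.37-fold difference (2.17 to 2.60). The RKP level was below that of RKP macrophage-marker cells, and against these the EKP level was at least 1.83-fold higher. In Epcam-low cells it stood higher in both sections, at 270 CPM (254 to 288) and 308 CPM (294 to 323). The log2 ratio of EKP over RKP there was -0.19, and it lay between -0.28 and 0.08 over the alternative settings, so the sections had no steady order for Rab3b in Epcam-low cells.

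In Epcam-intermediate cells, again 5 of 6 genes, all but Rab3b, passed 2-fold towards EKP and none towards RKP, beside 25.3% and 12.2% of 459 panel genes. With the macrophage level as a floor Chga dropped out and 4 remained. Scg2 was at 187 and 22.7 CPM, Ptprn2 at 110 and 19.7 CPM, and Snap25 at 194 and 48.3 CPM. In the other cells Scg2, Snap25 and Chga, 3 of 6, passed 2-fold towards EKP, against 15.3% of 476 panel genes, and none towards RKP, against 18.7%. The floor was not applied to these cells. Their EKP levels of Scg2 and Snap25, 43.0 and 30.2 CPM, lay below the 47.3 and 38.5 CPM of EKP macrophage-marker cells. Both genes are read as background there. The median log2 ratio of the 6 genes was 1.68, 0.33 and 0.86 in Epcam-intermediate, Epcam-low and other cells, beside 0.23, 0.32 and 0.04 over all genes. Without the macrophage floor, the share of the 6 genes at 2-fold was thus above the panel's share in 3 groups and below it in Epcam-low cells. In Epcam-low cells 3 passed as shares of thinned cells and 4 when groups were formed from thinned counts. Levels per cell in place of CPM moved the median of all genes by 0.11 on the log2 scale in Epcam-low cells and by less in the rest.

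**Figure D2:**
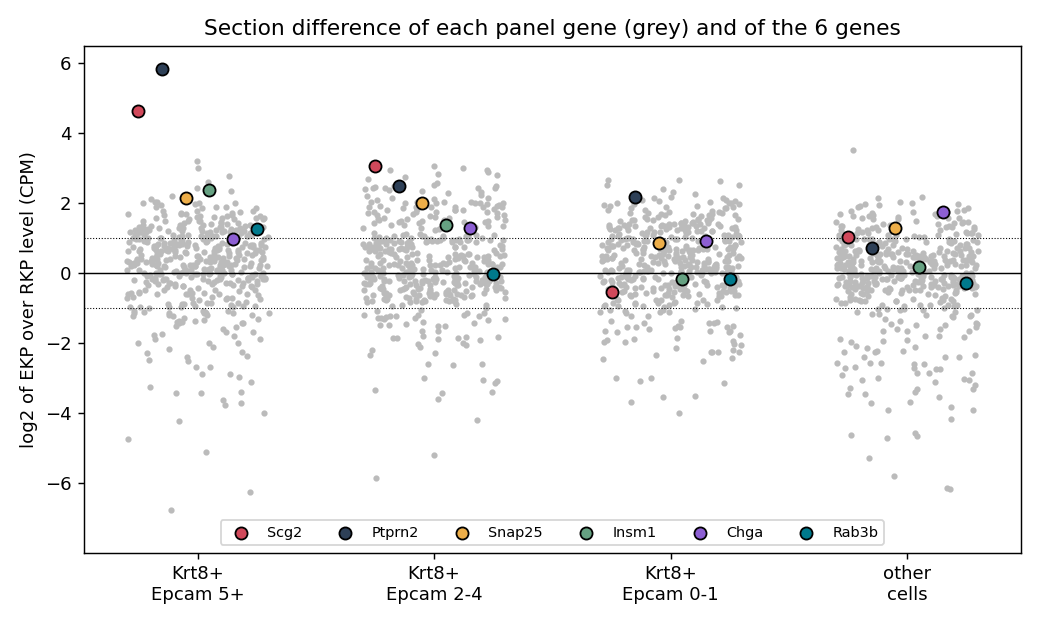
Log2 ratio of EKP over RKP level for every measurable panel gene (grey) and for the 6 genes (coloured) in each group of cells, with dotted lines at 2-fold. Ptprn2 at 5.82 and Scg2 at 4.62 lie above all grey points in Epcam-high cells, and the 6 genes spread around the grey points in Epcam-low cells.

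The panel carried 11 further genes from a list of 56 neuroendocrine, granule and neuronal genes. Chgb, the granin chromogranin B, stayed below the highest negative control probe of the group in all groups of both sections. Of the other 10, 6 passed 2-fold towards EKP in Epcam-high cells, 6 in Epcam-intermediate, 8 in Epcam-low and 4 in other cells, beside the panel shares of 24.7%, 25.3%, 26.7% and 15.3%. Towards RKP the numbers were 0, 0, 1 and 1, Gap43 both times. Their median log2 ratios were 1.24, 1.19, 1.38 and 0.95. Most were scarce: the proneural factor Neurod1 was at 18.7 CPM in EKP Epcam-high cells against 5.52 CPM in RKP. The granule protein Scg3 was at 16.3 against 7.18 CPM. Gad1, which makes the transmitter GABA, was at 113 and 26.0 CPM there, a 4.34-fold difference (3.90 to 4.84). Within EKP, however, each of the 10 stood lower in Epcam-high cells than in the other cells. In those other EKP cells Neurod1 was at 21.9, Scg3 at 27.4 and Gad1 at 136 CPM. No macrophage floor was set for the list genes. In Epcam-low cells the granule protein Scg5 was 3.00-fold higher in EKP (118 against 39.5 CPM), while Gap43, a growth cone protein of neurons, was at 38.6 CPM in EKP and 328 CPM in RKP, 8.50-fold apart (7.14 to 10.2). In other cells Gap43 was at 63.8 and 153 CPM. The granule genes did not share 1 level pattern. The 5 neuron markers summed to 692 and 505 CPM in Epcam-high cells of EKP and RKP and to 1763 and 1215 CPM in Epcam-low cells, mostly Tubb3; their part in these results was not tested. None of the 6 pancreatic islet hormone genes listed was on the panel.

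The second comparison asked how each gene changed with Epcam among Krt8-positive cells of 1 section. In EKP, Scg2 was 7.51-fold higher in Epcam-high than in Epcam-low cells (6.64 to 8.53), Snap25 7.81-fold (6.94 to 8.83) and Insm1 2.00-fold (1.85 to 2.17). In the same section Ptprn2 was 2.93-fold (2.77 to 3.10), and Rab3b 2.61-fold (2.39 to 2.84) higher in Epcam-low cells. For Chga both EKP levels, 36.4 and 56.7 CPM, lay below the macrophage level, and no fold is read. Between these 2 end groups of EKP, Scg2, Snap25 and Insm1 were thus higher with Epcam, and Ptprn2 and Rab3b lower. The latter pair was lowest in the Epcam-intermediate cells between them, at 110 and 92.4 CPM.

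In RKP only Snap25 went with Epcam, 3.20-fold (2.81 to 3.65). The Epcam-high levels of Ptprn2 and Rab3b lay below those of RKP macrophage-marker cells, and against the latter the Epcam-low levels were at least 20.5-fold and at least 5.44-fold higher. Scg2 was 4.78-fold (4.21 to 5.43), Insm1 2.89-fold (2.68 to 3.12) and Chga 1.64-fold (1.35 to 1.97) higher in Epcam-low cells. The RKP Epcam-high levels of Scg2 and Chga, 22.7 and 18.6 CPM, lay close to the macrophage levels of 21.3 and 18.0 CPM. Scg2 and Insm1 thus ran in opposite directions in the 2 sections.

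Median depth differed between cells of different Epcam count, so each cell was thinned to 80 gene counts and the share of cells with the gene was followed over 7 steps of Epcam count. In EKP, the share with Scg2 was higher at each step than at the one before, from 0.621% of cells without Epcam to 4.50% of cells with 20 or more Epcam counts, and Snap25 from 0.532% to 5.10%. Insm1 was in 1.70% of EKP cells without Epcam, 1.14% of those with 2 counts and 3.39% at 20 or more. Ptprn2 was in 5.45% of EKP cells without Epcam, in 0.787% at 2 counts and in 1.87% at 20 or more, a U-shaped course. Rab3b went from 2.19% through 0.644% to 0.887% over the same 3 points. Between no Epcam and 20 or more in RKP, Ptprn2 went from 1.30% to 0.0455%, Rab3b from 2.61% to 0.318%, Scg2 from 0.755% to 0.205%, and Snap25 from 0.361% to 1.55%. The Epcam-related patterns were therefore present with the 6 genes read at 1 fixed depth, but Krt8 and Epcam were counted before thinning. The cells of the steps still differed in depth, in EKP from a median of 178 gene counts at 3 to 4 Epcam counts to 379 at 20 or more. Whether this depth, or the macrophage and fibroblast RNA that was higher in Epcam-low cells, takes part in these patterns was not tested.

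**Figure D3:**
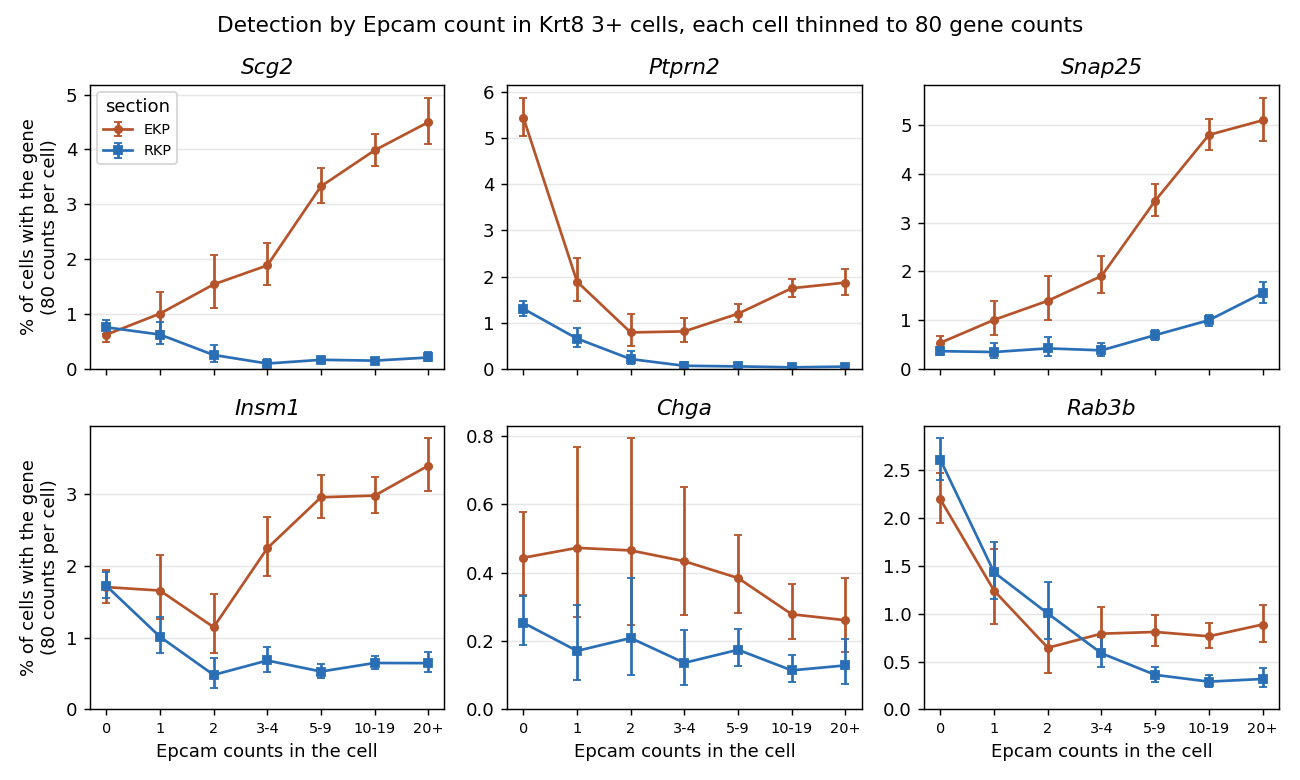
Percent of Krt8-positive cells with each gene, after thinning every cell to 80 gene counts, with 95% Clopper-Pearson intervals. Cells are placed by their Epcam count before thinning. Circles are EKP and squares RKP. Scg2 and Snap25 shares are higher with more Epcam in EKP, to 4.50% and 5.10%, Ptprn2 is U-shaped in EKP, and Ptprn2 and Rab3b shares are lower with more Epcam in RKP.

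Positions of cells were not used here, and the order of cells in the file stood in for place. Over 10 equal stretches of the file, Scg2 was in 7.25% to 15.6% of EKP Epcam-high cells (median 10.6%), Snap25 in 11.7% to 16.3% and Insm1 in 4.27% to 11.9%. All 10 EKP stretches lay above all 10 RKP stretches for Scg2 (0.204% to 0.865%), Snap25 (1.68% to 6.66%) and Ptprn2 (2.83% to 9.09% against 0.0421% to 0.297%). For Insm1 they overlapped, since RKP reached 5.34% in 1 stretch. In EKP Epcam-low cells Ptprn2 ranged from 0.385% to 18.1% (median 7.73%) and Rab3b from 0.385% to 7.95%, the widest ranges of the 6 in these cells. Both shares were above those of Epcam-high cells in most stretches but below them in the first and last. There Ptprn2 was in 0.385% against 3.38% and 3.10% against 9.09%, and Rab3b in 0.385% against 3.72% and 1.47% against 2.51%. Ptprn2 was also lower in the third, at 5.56% against 7.05%. In RKP Epcam-low cells Rab3b ranged from 0.634% to 8.12% and Insm1 from 0% to 5.10%.

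Counts of 1 gene also gathered in single cells. If a gene's counts were spread over EKP Epcam-high cells by depth alone, 32.2 cells would hold 3 or more Scg2 counts, and 474 did, with up to 14 in a cell. For Insm1 184 cells were seen against 14.1, for Snap25 281 against 45.2, and for Ptprn2 22 against 2.32. Chga, with at most 2 counts in any EKP Epcam-high cell, had none at 3 or more where 0.0104 would be expected. Other genes of the neuroendocrine list showed such an excess in EKP Epcam-high cells too. Gad1 had 20 cells at 3 or more against 0.306 expected, and Tubb3 had 117 against 29.7. The scarcer Neurod1 and Scg3 had none. The panel as a whole was not counted in this way, so gathering is not read as particular to the genes described. RKP Epcam-high cells had few Scg2 counts, but 1 cell held 32 of the 411.

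The third comparison asked whether the genes were found together in the same cells more often than chance. The expected number was summed over 6 ranges of gene counts, because deep cells hold more of every gene, and a pair was read where 10 or more cells were expected. A ratio of observed to expected cells of 1.5 was taken as the limit of size. In EKP Epcam-high cells all 15 pairs were readable and none reached 1.5, a ratio that 5.28% of all 71822 readable panel pairs reached. The highest was Scg2 with Snap25, in 840 cells against 595 expected (1.41, 1.32 to 1.51). Scg2 with Ptprn2 was at 1.35 (345 against 255) and Scg2 with Insm1 at 1.34 (542 against 403). At the other end, Scg2 with Rab3b was at 0.87 (107 against 123) and Chga with Rab3b at 0.66 (8 against 12.0; 0.29 to 1.31). The median over the 15 pairs was 1.19, and 13 lay above 1. Of EKP Epcam-high cells with Scg2, 20.8% also had Snap25, and of those with Snap25, 15.4% had Scg2, so most cells with either gene showed it alone at this depth.

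In RKP Epcam-high cells the genes were rarer and 5 pairs were readable, of which 4 reached 1.5, where 6.47% of panel pairs did. Snap25 and Insm1 were together in 132 cells against 46.4 expected (2.85, 2.38 to 3.37), Scg2 and Snap25 in 30 against 10.7 (2.81, 1.89 to 4.00), and Insm1 and Rab3b in 38 against 16.6 (2.29, 1.62 to 3.14). Snap25 with Rab3b was at 1.58 and Snap25 with Chga at 1.44. The same pairs in EKP were at 1.19 for Snap25 with Insm1 (680 against 570) and 1.19 for Insm1 with Rab3b. The RKP cells with these genes were few, but the genes met more above chance in them than in EKP; this difference was not tested, and after thinning to 80 counts only 1 RKP pair in any group stayed readable.

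In EKP Epcam-low cells, 1 of 10 readable pairs reached 1.5 (4.11% of panel pairs): Snap25 with Insm1, in 20 cells against 10.2 (1.96, 1.20 to 3.03). Ptprn2 and Rab3b, both highest in these cells, were together in 185 against 127 (1.46, 1.25 to 1.68), and Ptprn2 and Insm1 in 74 against 77.9 (0.95, 0.75 to 1.19). In RKP Epcam-low cells 2 of 8 pairs reached 1.5 (6.71% of panel pairs): Scg2 with Insm1, in 44 against 20.3 (2.17, 1.58 to 2.91), and Chga with Rab3b, in 20 against 11.3 (1.76, 1.08 to 2.72). Among EKP Epcam-intermediate cells 1 of 2 pairs reached it (3.97% of panel pairs), Scg2 with Insm1 at 1.53 (16 against 10.5), and in other EKP cells none of 2 did (6.91%). No pair was readable in RKP Epcam-intermediate or other cells, where 5.54% and 9.58% of panel pairs reached 1.5. When expected numbers were also taken within 20 stretches of the file, no EKP pair reached 1.5 and 6 RKP pairs did.

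**Figure D4:**
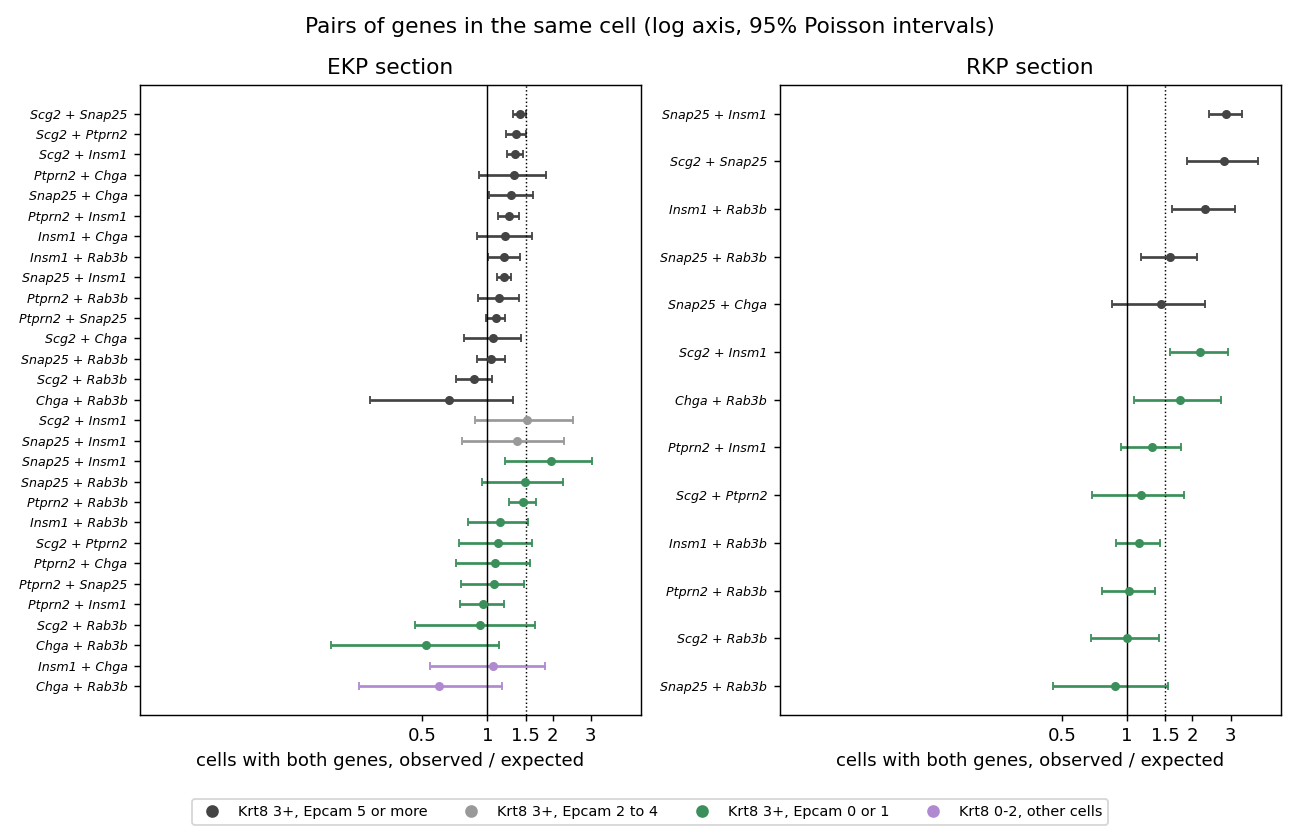
Observed over expected number of cells with both genes for each readable pair (log axis), with 95% Poisson intervals of the observed number, coloured by group of cells; the dotted line is 1.5. EKP Epcam-high pairs lie between 0.66 and 1.41, and RKP Epcam-high pairs between 1.44 and 2.85.

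Counted per cell, 66.2% of EKP Epcam-high cells had none of the 6 genes, 26.5% had 1 and 6.34% had 2. Cells with 3 or more numbered 402 against 260 expected, a ratio of 1.55, and 32 held 4 genes against 14.7 expected with 4 or more. None held 5 or 6, which allows a share of up to 0.00747% of cells, and 0.397 cells with 5 or more were expected. In RKP Epcam-high cells 93.3% had none, and 13 cells held 3 or more against 2.15 expected. A full set of the 6 genes was thus not seen in any cell of either section's Epcam-high group. Only 0.00348 such cells were expected in EKP and 7.1e-08 in RKP, so nothing is read from this absence.

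Over the 8 units formed by 4 groups in 2 sections, Pearson correlations of log2(CPM + 10) described which of 473 panel genes had the most similar profile. All units of a section share its library. Insm1 and Scg2 were most like each other among the 6 (r = 0.91), followed by Ptprn2 and Rab3b (0.79) and Scg2 and Snap25 (0.78). Chga had no close partner among them, with r between -0.32 and 0.21. On the whole panel the closest gene was Insm1 for Scg2, Rhd for Ptprn2 (0.97), Gpx2 for Snap25 (0.97), Nupr1 for Insm1 (0.92), Rbp7 for Chga (0.97) and Rpl35 for Rab3b (0.98). Each is the highest of 473 genes over only 8 units. Rhd, at 2.71 to 38.3 CPM, and Rbp7, at 6.63 to 44.0 CPM, were scarce, so little is read from their correlations. Within EKP Epcam-high cells, the panel gene with the highest ratio of observed to expected cells, where 20 or more were expected, was Gad1 for Scg2 (198 cells against 118, 1.67), Prap1 for Ptprn2 (39 against 23.0, 1.70), Asz1 for Snap25 (34 against 22.4, 1.52), Slc14a1 for Insm1 (81 against 47.9, 1.69), Angpt2 for Chga (28 against 20.8, 1.35) and Cavin2 for Rab3b (234 against 150, 1.56). Each of these ratios is the highest of all genes ranked, 209 of them for Chga. The interval of Angpt2 with Chga ran from 0.896 to 1.95, so that pair is not told from chance. Chga is also read as background in these cells. By the ratio of observed to expected cells, Oit1 was among the first 3 for Scg2, Ptprn2 and Insm1, at 1.62, 1.63 and 1.62.

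Some of the other cells held several Chga counts. In EKP 1184 had Chga and 196 of them held 3 or more Chga counts, against 0.541 expected from depth, and 80 held 5 or more, up to 17. In RKP 69 held 3 or more and 30 held 5 or more, up to 14. These cells were singled out after their values were seen. In the 80 EKP cells the leading genes, by fold over other cells without Chga, were Cyp4b1 (13.2-fold), the caveolar Cav1 (10.3-fold), the endothelial lectin Clec14a (8.76-fold), Gpihbp1, which holds lipoprotein lipase on capillaries (7.13-fold), the fatty acid receptor Cd36 (6.31-fold) and Mgll (6.16-fold). Gpihbp1 was in 93.8% of them and in 17.3% of cells without Chga, and the endothelial Pecam1 in 92.5% and 22.6%. In the 30 RKP cells the leading genes were Lce1m, Cnfn, Gm94, Fam25c, Lor and Crct1. Lce1m, Cnfn and Lor encode proteins of the cornified envelope of skin, and Lor was in 40% of these cells and 2.19% of those without Chga. No RKP cell with 5 or more Chga counts had both Lor and Gpihbp1; Gpihbp1 was in 50% of them.

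None of the 196 EKP cells had Scg2, Snap25 or Insm1, which allows up to 1.53% for each, beside 0.694%, 0.509% and 0.962% of all other EKP cells. At this number of cells, the shares of the other cells could not be told from 0. Their number per 10 equal stretches of the file ranged from 0 to 72 in EKP (median 12.5) and from 0 to 24 in RKP (median 5). In cells of endothelial markers Chga was in 2.5% (EKP, 3359 cells) and 0.777% (RKP, 3346 cells), and Rab3b in 2.68% and 2.63%. Of the 196 EKP cells, 21 were cells of endothelial markers, 88 of fibroblast markers and 83 of no marker list, and Chga was in 1.68% of EKP fibroblast-marker cells and 1.82% of cells of no list. Yet Gpihbp1 was in 86.7% and Pecam1 in 84.7% of the 196, against 17.3% and 22.6% of other EKP cells without Chga. The fibroblast marker Col1a1 was in 98.0% of the 196 and 96.7% of those without Chga, so it does not set them apart. Only 48.7% of all EKP Chga counts lay in cells with 80 or more gene counts, against 80.6% for Scg2 and 86.2% for Ptprn2, so Chga in EKP was described from the smaller part of its counts.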

How the data were processed

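The values are raw counts of transcripts by gene and segmented cell, as deposited by the authors without scaling. Per the submitters' processing notes, Seurat 4.4.0 was used, for an unstated step. How cells were outlined, which transcripts were kept and the genome build were not given in the sources used here; outlines can take in neighbours' transcripts. Sections were grouped by title. The 6 genes, lists and tests were chosen with earlier results of these data known. Counts were summed over the cells of each group and scaled to CPM. A gene was measurable where its higher section lay above the group's highest of 20 negative control probes; where the lower section did not, its fold is a lower bound. Folds have exact conditional binomial, shares Clopper-Pearson and counts Poisson 95% intervals. Named genes were the 6, the list's other panel genes, and the 3 nearest by correlation and by co-detection (20 or more cells expected); leading genes of Chga-rich cells were added after seeing values. The values of 1 gene of the list are not reported here. Macrophage, endothelial and fibroblast cells were those of the other cells whose highest marker sum was that list's, at 5 or more counts and at least 2 times the next. Depth ranges were 80-119, 120-159, 160-239, 240-319, 320-479 and 480 or more counts. No doublets were called. The sections shared 19 cell barcodes, 0 with the same counts. Folds and co-detection were tested on simulated data. There, unlike above, folds were centred on the unchanged genes and the control-probe rule was left out. Python 3.11.15, numpy 2.4.6, scipy 1.17.1, pandas 2.3.3 and matplotlib 3.10.9 were used. Alternatives covered the cell filter, scaling, thinning, control subtraction, the macrophage level as a floor and the co-detection ranges.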

Additional observations from a re-analysis of the deposited data

Results flagged for a closer look

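Scg2 ran in opposite directions with Epcam in the 2 sections. Its log2 level at Epcam 5 or more over Epcam 0 or 1 was 2.91 in EKP (558 against 74.3 CPM) and -2.26 in RKP (22.7 against 109 CPM, with 21.3 CPM in RKP macrophage-marker cells). At a fixed 80 gene counts per cell, with Epcam counted before thinning, Scg2 was in 0.621% of EKP and 0.755% of RKP cells without Epcam. It was in 4.50% and 0.205% of those with 20 or more Epcam counts, so the sections began together and parted.

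Insm1 did the same to a smaller extent, with a log2 level at Epcam 5 or more over Epcam 0 or 1 of 1.00 in EKP (418 against 209 CPM) and -1.53 in RKP (81.9 against 237 CPM). At 80 gene counts it was in 1.70% and 1.72% of cells without Epcam and in 3.39% and 0.644% at 20 or more. With 1 section on each side, the difference between the sections was not tested for either gene.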

How the results depend on the processing

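No paired analysis was possible because each group has 1 section and the labels give no replicate numbers; for the same reason no replicate could be left out. Of the 6 genes, 1 was at 2-fold between sections in Epcam-low cells, but 2 were with cells of 40 or more counts, with mean counts per cell and with the control probe subtracted, 3 as shares of thinned cells and 4 with groups formed from thinned counts. In the other 3 groups of cells the number stayed within 1.5 times. EKP pairs at 1.5 numbered 2 of 29, and 6 of 28 without depth ranges, 0 of 28 within 20 stretches of the file, 1 of 10 after thinning, 6 of 34 with 40 or more counts and 1 of 23 with 160 or more. RKP pairs numbered 6 of 13, and 0 of 1 after thinning. Pairs above 1 numbered 34 of 42 in both sections, and 10 after thinning, where few pairs were readable. The share of panel pairs above 1 was not counted. Ranges crossed with Epcam steps, chosen after seeing the data, gave 3 EKP and 7 RKP pairs. The macrophage level as a floor, likewise chosen after seeing the data, gave 4, 4 and 1 genes at 2-fold in Epcam-high, Epcam-intermediate and Epcam-low cells. No gene at 2-fold changed direction. Of single values, 34 of 144 levels and 17 of 211 pair ratios moved by more than counting error. Depth limits co-detection: at 80 counts most genes were in under 5% of cells.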

Other observations

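In EKP Epcam-high cells the level of Mki67, a marker of cycling cells, was 2460 CPM in cells with none of the 6, 3212 with 1, 4047 with 2 and 4460 with 3 or more, and that of Top2a, the mitotic topoisomerase, was 2573, 3443, 4315 and 4903 CPM. The order did not hold for every gene and group: Cenpf there was at 1093 CPM with 2 genes and 1035 with 3 or more, Mki67 in EKP Epcam-low cells at 8932 with 2 and 5349 with 3 or more (30 cells), and Top2a in RKP Epcam-high cells at 5859 with 2 and 3314 with 3 or more (13 cells). From none to 3 or more genes, EKP Epcam-high cells differed in other ways: median gene counts were 251, 293, 335 and 366, median Epcam counts 12, 15, 17 and 20, and the macrophage markers summed to 5147, 3689, 3272 and 3164 CPM. By single gene, 6 proliferation genes summed to 31809 CPM in EKP Epcam-high cells with Ptprn2 against 20427 without, and to 29711 with Insm1 against 20202 without, but to 19063 with Snap25 against 21611 without. In RKP Epcam-high cells the sum was 39344 CPM with Insm1 and 24747 without, and 29075 with Snap25 and 24898 without. The part of depth in these values was not tested.

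The 138 EKP Epcam-high cells with 5 or more Scg2 counts, singled out after their values were seen, were led by Bmp2, a bone morphogenetic protein, at 3.70-fold over cells without Scg2 (1243 against 336 CPM), then Snap25 at 2.71-fold, Prom2 at 2.26-fold and Insm1 at 2.09-fold. The 31 such cells with 5 or more Snap25 counts were led by Tmem212 (4.34-fold), Omp (2.31-fold) and Ivl (1.80-fold), and neither Scg2 nor Insm1 was among their 6 leading genes.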
